A study of Mus musculus with 4 samples.

Results

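Sox and T-box genes encode 2 families of transcription factors. Here, 33 of them (18 Sox and 15 T-box genes) were examined for DNA that was captured less in satellite cells of tamoxifen-treated mice than in those of oil-treated mice. A region was counted for a gene when it overlapped the gene's RefSeq body or the 2000 bp on either side by any base. This gave 47 distinct regions, none shared by 2 members, of the 39231 on the authors' list. At least 1 region was found at 18 of the 33 genes (54.5%), against 45.2% of all 21887 protein-coding genes. The members were taken by name and not by their values, but with earlier results of these data known.

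Sox proteins bind the minor groove of DNA through an HMG box and bend it, and T-box proteins bind through the T-box domain. Both families act mainly in development, where they set and hold cell identities, and many of their genes are silent outside their own lineages. DNA methylation at CpG dinucleotides is copied to the new strand at replication by Dnmt1, which the Uhrf1 protein brings to hemimethylated DNA. Several members have known roles in muscle. Sox6 represses slow fibre genes, Sox15 is needed for normal muscle regeneration in mice, Tbx15 acts in glycolytic fibres, and Tbx4 and Tbx5 act in hindlimb and forelimb.

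The cells were satellite cells, the stem cells of skeletal muscle, from hindlimb muscles of 9-week-old mice, grown for 3 days on Matrigel. One group of mice was injected on 5 consecutive days with tamoxifen (150 µl at 20 mg/ml) to induce Cre recombination and so make satellite cells deficient in Uhrf1, and the control group is labelled oil. The Cre driver, the Uhrf1 allele and whether the oil mice carried both are not given in the sources used here. Each treatment has a library of MBD2-captured, methylated DNA and a library of non-methylated DNA, 4 samples in 4 groups of 1. The compared alignments are named in the file headers by treatment alone, and are read here as those of the captured DNA. After duplicate removal the tamoxifen library held 25614791 tags and the oil library 19534328. With 1 library per treatment there is no replicate, no test between conditions was possible, and tamoxifen itself, the deletion, the animals, the cultures and the capture cannot be told apart. Captured DNA carries no expression, so the labelled cell type and the loss of Uhrf1 were not checked against marker genes.

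All values are at the summit of a region, where the oil signal was highest, which biases the difference upward. Tags are unscaled counts over the summit. The authors' fold is oil over tamoxifen, with tamoxifen scaled to the oil library by 0.763 and 1 tag added to each side, so a higher fold means a lower tamoxifen signal. Every listed region is one where oil was called above tamoxifen, so that direction is a property of the list. Limits in brackets are exact 95% limits (Clopper-Pearson) on the scaled tag ratio of oil to tamoxifen without the added tag, and they cover counting error alone. Coordinates are those of the files (mm10), and genes are placed by the RefSeq table of GRCm38.p6.

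At the 47 regions the tamoxifen library had 2 or fewer to 101 tags (median 11) and the oil library 16 to 205 (median 42). The scaled tamoxifen signal was a median 19.1% of the oil signal, against 20.1% over all listed regions. The median fold was 4.98, against 4.61 for the whole list, and 23 regions (48.9%) reached a fold of 5, against 40.9% of the list. A fold of 10 or more was seen in 1 region (2.1%), that of Sox12, against 2.03% of the list.

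**Figure D1:**
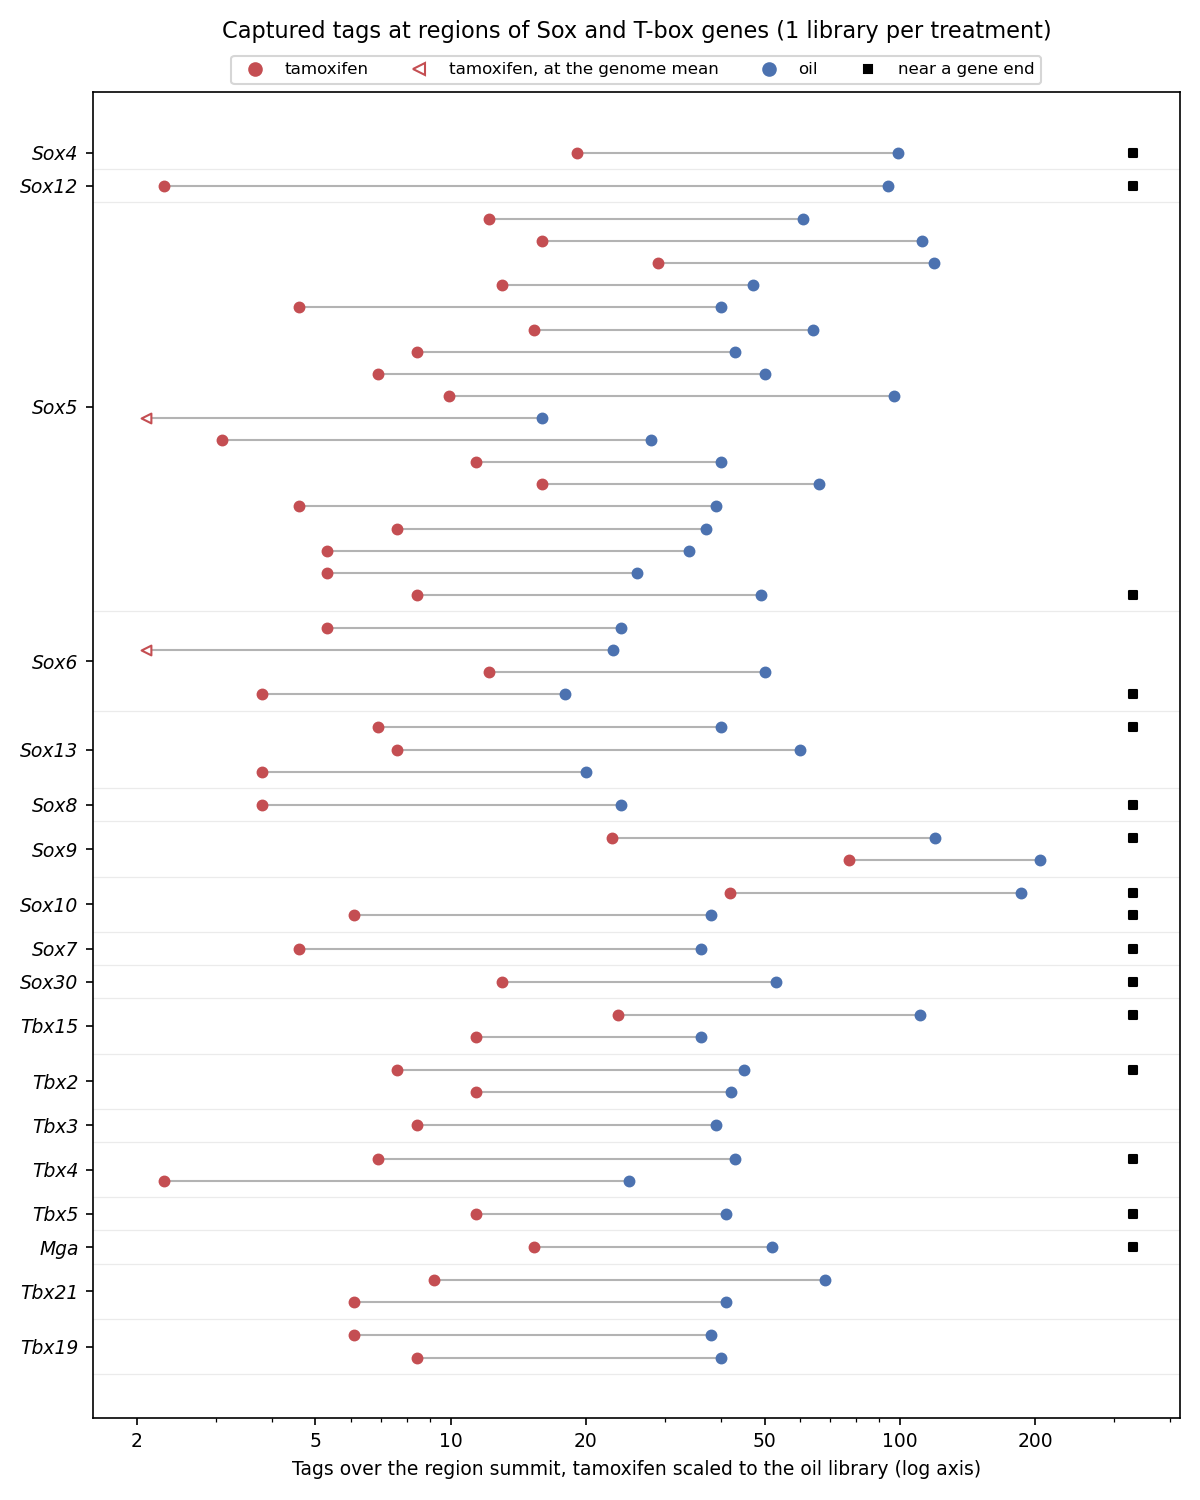
Tags over the summit of each of the 47 regions, with 1 line per region grouped by gene (rows within a gene in genome order), on a log axis. Red points are tamoxifen tags scaled to the oil library, open triangles mark tamoxifen at the genome mean of 2.10 scaled tags (2 or fewer tags), blue points are oil tags, and black squares mark the 16 regions near a gene end. The Sox12 line is the longest, and the Sox9 and Sox10 regions reach the highest oil tags (205 and 186).

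Long genes have more room for regions, so the counts were set beside genes of like length. Of members under 5 kb, 3 of 10 carried a region (30%), against 13.2% of protein-coding genes of that length. The shares were 4 of 9 (44.4%) against 28.3% at 5 to 10 kb, and 4 of 6 (66.7%) against 45.9% at 10 to 30 kb. At 30 to 100 kb they were 4 of 5 (80%) against 66.8%, and all 3 members of 100 kb or more carried a region, against 84.9%. The members' share lay above the background share in each of the 5 length classes, each of which holds 10 or fewer members. The members had a median length of 9.3 kb, against 5.2 kb in forkhead genes, another developmental transcription factor family, of which 16 of 44 (36.4%) carried a region. No test of these differences was made. CpG density, which sets how well DNA is captured, differs between genes and was not matched.

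**Figure D2:**
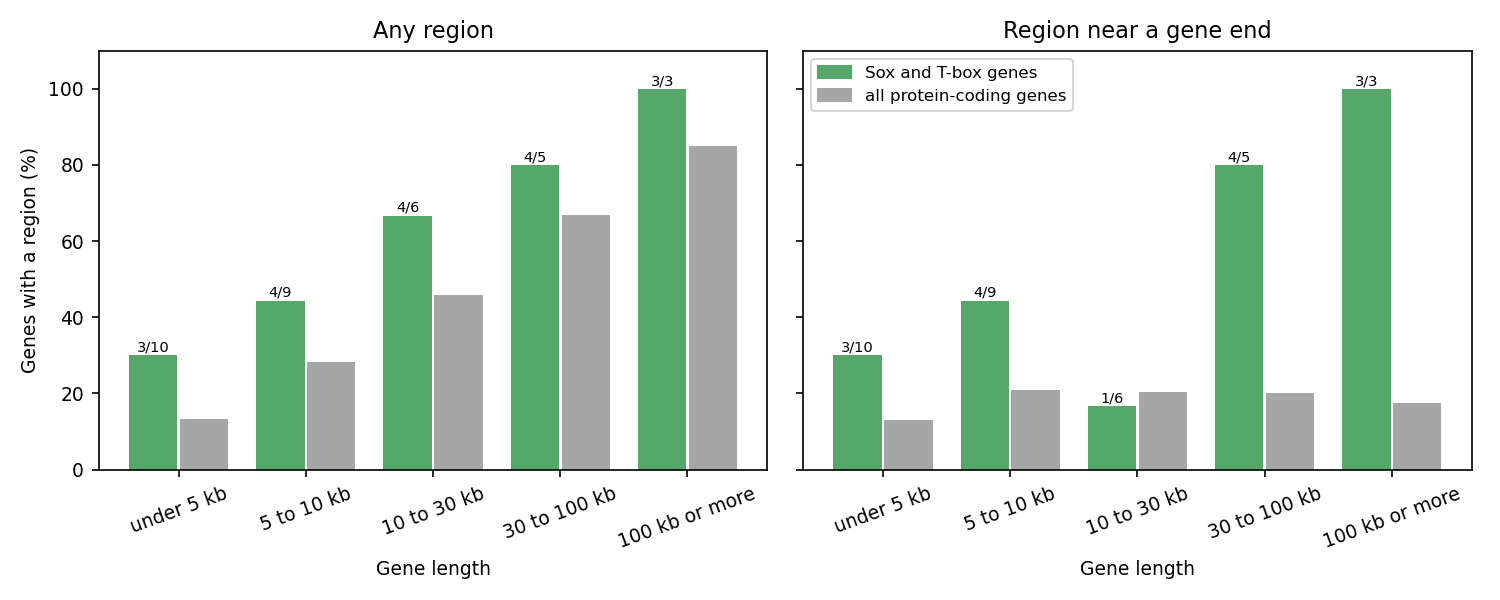
Percentage of genes with a region (left panel) and with a region near a gene end (right panel) by gene length, for Sox and T-box genes (green, with counts) and all protein-coding genes (grey). The green bars are the higher ones except for regions near an end in genes of 10 to 30 kb, where 1 of 6 members compares with 20.5%.

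The regions were split into those near a gene end, which overlap a window of 2000 bp to each side of the end, and those in the interior. Of the 47 regions, 16 were near an end and 31 interior. A region near an end was found at 15 of 33 members (45.5%), against 18.4% of protein-coding genes. By gene length this was 3 of 10 against 13.1% under 5 kb, 4 of 9 against 20.9% at 5 to 10 kb, 1 of 6 against 20.5% at 10 to 30 kb, 4 of 5 against 20.2% at 30 to 100 kb, and 3 of 3 against 17.5% above. Per length, there were 6.25 regions per 100 kb in the members' end windows and 1.50 in their interiors, against 2.78 and 2.13 for all protein-coding genes. Forkhead genes had 4.86 and 3.69, and 12 of 44 (27.3%) had a region near an end. By gene length, the members' interiors had 0.00 regions per 100 kb against 2.38 in protein-coding genes under 5 kb. They had 5.74 against 3.87 at 5 to 10 kb and 6.01 against 3.68 at 10 to 30 kb. At 30 to 100 kb they had 0.66 against 2.98, and above that 1.29 against 1.52. Of the members' regions 34% were near an end (exact 95% limits 20.9% to 49.3%), against 17% over protein-coding genes. The limits treat the 47 regions as independent, which regions of the same gene are not, and they are no test. The share of 34% depends on Sox5, whose 18 regions are nearly all interior. Without Sox5 it was 51.7%, while the density was 6.05 near ends and 1.26 in interiors.

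Of the 16 end regions, 11 were at Sox genes and 5 at T-box genes. All 10 Sox genes with a region had at least 1 near an end, 10 of 18 in all, with 8.10 regions per 100 kb of end window and 1.43 of interior. Of the 1608 kb of Sox interior, 1516 kb lies in the 2 genes of 100 kb or more. It held 1.32 regions per 100 kb there, against 0.71 in the interiors of protein-coding genes of 500 kb or more. Among T-box genes, 5 of the 8 with a region had at least 1 near an end, with 4.17 and 1.76 per 100 kb. Counted by region, the share near an end was 32.4% of 34 at Sox genes and 38.5% of 13 at T-box genes. The Sox genes were shorter, with a median of 5.2 kb against 17.3 kb for the T-box genes, and in a gene of about 4 kb nearly every base lies within 2000 bp of an end. By gene length, 3 of 9 Sox and 0 of 1 T-box genes under 5 kb had an end region, and 3 of 5 and 1 of 4 at 5 to 10 kb. At 30 to 100 kb 2 of 2 and 2 of 3 did, and above that 2 of 2 and 1 of 1. At 10 to 30 kb there were only T-box genes (1 of 6). Whether length bears on the difference between the families was not tested. The median fold was 5.13 near ends and 4.69 in interiors over all members, against 4.73 and 4.72 over protein-coding genes.

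Most of the end regions stood back from the end itself. Of the 16, 10 lay between 1000 and 2000 bp away and 6 came within 1000 bp. Over protein-coding genes the order was the other way, with 1883 regions at 1000 to 2000 bp and 2268 within 1000 bp. With a 1000 bp window the share of members with an end region was 18.2%, against 10.4% of protein-coding genes. Forkhead genes had the same share as the members (8 of 44, 18.2%). The RefSeq promoter table gives a strand for 24 of the 33 genes. It places 5 end regions on the start side (Sox4, Sox5, Sox6, Sox30 and Tbx4) and 4 on the far side (Sox8, Sox12, Sox13 and Mga). The other 7 belong to genes with no listed strand (Sox7, Sox9, Sox10, Tbx2, Tbx5 and Tbx15).

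**Figure D3:**
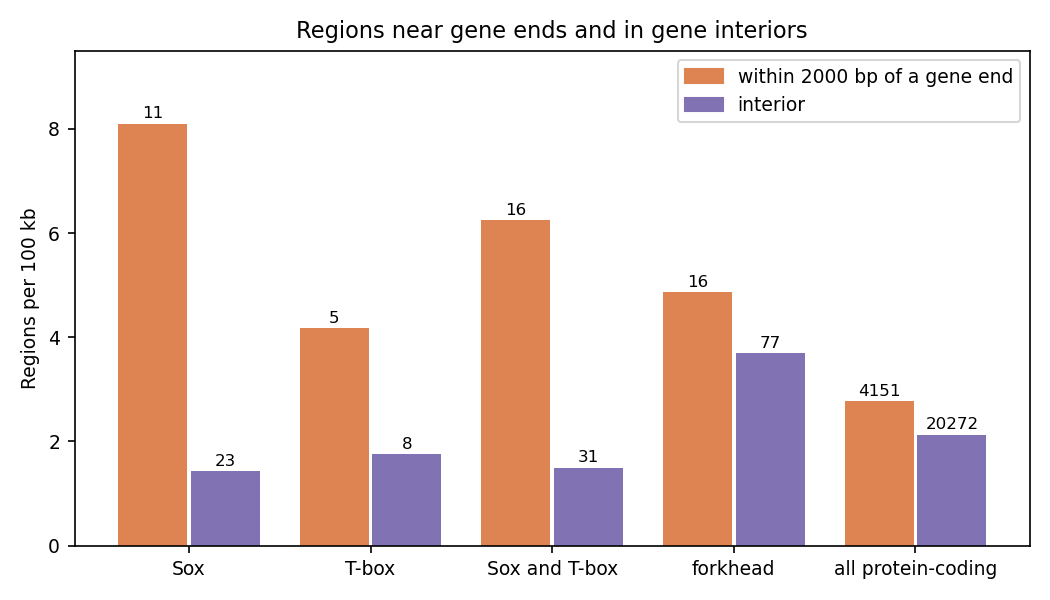
Regions per 100 kb within 2000 bp of a gene end (orange) and in gene interiors (purple) for Sox, T-box, all members, forkhead and all protein-coding genes, with the number of regions above each bar. The Sox genes have 8.10 near ends and 1.43 in interiors, while the bars of all protein-coding genes are close to each other (2.78 and 2.13). The sets are not matched for gene length.

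Promoter windows, taken by RefSeq (GRCm38.p6) from 250 bases before to 50 after a listed start site, were overlapped by a region in 2 of the members' 30 (6.67%), at Sox6 and Sox30, against 161 of 21263 of protein-coding genes (0.757%). Their sequences are shown with that of Sox12, whose window is the richest in CpG among the members and carries no region although the gene holds the strongest one, and that of Sox15, whose nearest regions fall just outside the 2000 bp rule. Capitals mark every CpG, the dinucleotide that is methylated and that MBD2 binds, and each sequence reads 5′ to 3′ on the gene's strand. The Sox6 line is the whole region at chr7:116038714-116038914 (minus strand, 201 bases, 8 CpG). The others are whole windows, Sox30 at chr11:45980060-45980359 (plus, 28 CpG), Sox12 at chr2:152397997-152398296 (minus, 47 CpG) and Sox15 at chr11:69654787-69655086 (plus, 5 CpG).
Sox6: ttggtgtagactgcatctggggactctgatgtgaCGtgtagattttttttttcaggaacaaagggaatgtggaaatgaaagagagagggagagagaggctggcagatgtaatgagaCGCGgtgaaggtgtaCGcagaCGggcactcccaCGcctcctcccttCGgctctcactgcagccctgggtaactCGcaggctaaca
Sox30: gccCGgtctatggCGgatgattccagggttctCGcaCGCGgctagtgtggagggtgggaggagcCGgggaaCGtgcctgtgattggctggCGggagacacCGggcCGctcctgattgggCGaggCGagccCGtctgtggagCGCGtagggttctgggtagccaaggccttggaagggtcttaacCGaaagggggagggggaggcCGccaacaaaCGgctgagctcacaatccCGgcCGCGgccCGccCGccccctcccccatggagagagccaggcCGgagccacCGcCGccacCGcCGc
Sox12: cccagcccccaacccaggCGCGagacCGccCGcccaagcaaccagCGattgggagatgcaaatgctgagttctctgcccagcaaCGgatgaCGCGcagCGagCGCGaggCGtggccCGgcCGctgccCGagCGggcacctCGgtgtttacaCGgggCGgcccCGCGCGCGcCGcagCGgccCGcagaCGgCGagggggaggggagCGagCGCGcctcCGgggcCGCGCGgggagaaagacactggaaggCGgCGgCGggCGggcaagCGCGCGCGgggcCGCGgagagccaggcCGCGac
Sox15: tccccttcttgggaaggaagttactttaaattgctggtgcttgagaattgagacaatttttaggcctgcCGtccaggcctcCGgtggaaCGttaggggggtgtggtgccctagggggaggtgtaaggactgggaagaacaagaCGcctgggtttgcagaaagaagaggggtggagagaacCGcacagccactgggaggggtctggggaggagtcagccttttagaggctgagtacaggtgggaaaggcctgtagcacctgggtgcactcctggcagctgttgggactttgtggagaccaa

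The Sox6 region lies wholly inside the window of the outermost of its 6 listed starts, with the summit 34 bp before that start. It was the most thinly covered of the end regions, with 5 tamoxifen and 18 oil tags (fold 3.95, limits 1.69 to 16.3). It was not past a q limit of 1e-06. With unscaled tamoxifen tags its -log10 p was below the lowest on the list. The Sox30 region overlaps the first 59 bases of its window, which hold 5 of the 28 CpG, and its summit is 239 bp before the listed start. It had 17 tamoxifen and 53 oil tags (fold 3.87, limits 2.33 to 7.53). Sox30 acts in the male germ line, where it is needed for spermatid development in mice. Among windows of 20 to 29 CpG, 9 of 4358 (0.207%) were overlapped by a region, against 60 of 4426 (1.36%) at 10 to 19 CpG, the class of the Sox6 window with its 11. The Sox12 window has more CpG than 98.2% of windows, and those of Sox13 (40 CpG) and Sox1 (37) were not overlapped either. A window without a region may be unmethylated in both cultures, unchanged or too thinly covered, and the list does not tell these apart.

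**Figure D4:**
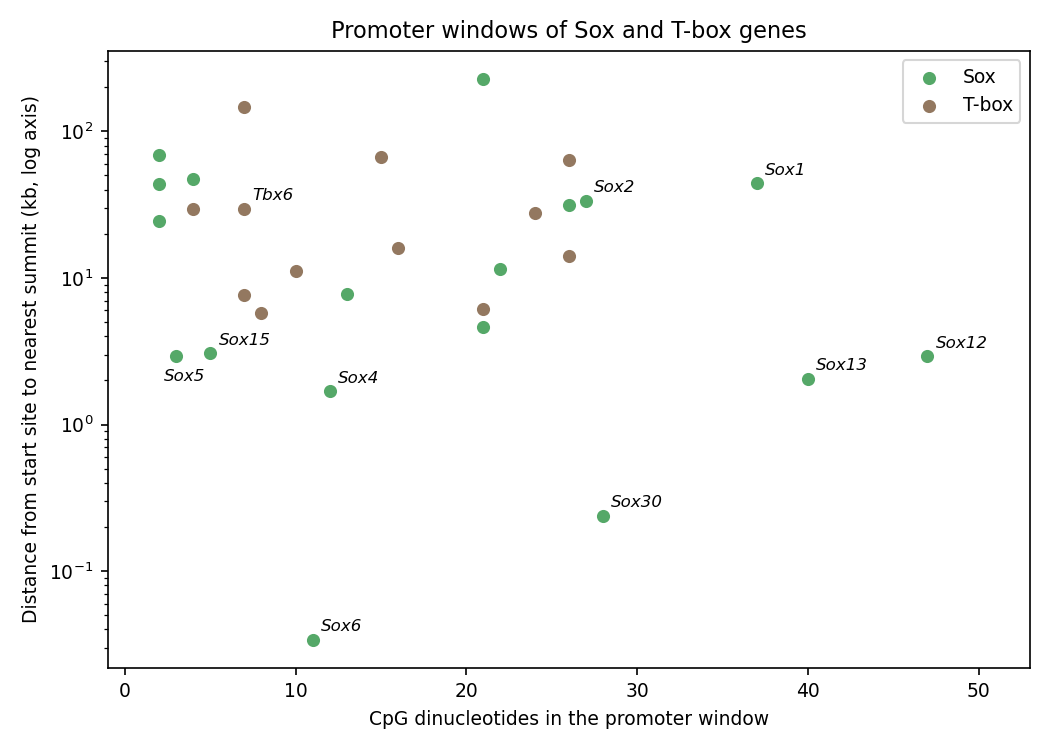
Each point is a listed promoter window of a Sox gene (green) or T-box gene (brown), with its number of CpG dinucleotides and the distance from its start site to the nearest region summit (log axis). The Sox6 and Sox30 windows, at 34 and 239 bp, sit below all others, and the CpG-rich windows of Sox1 and Sox2 lie 44.4 and 33.6 kb from any summit.

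None of the 4 SoxB genes examined carried a region. Sox1 and Sox2 keep neural progenitors undifferentiated, Sox2 also serves pluripotency, and Sox14 and Sox21 mostly repress transcription in neurons. All 4 are under 5 kb long, a length at which 13.2% of protein-coding genes carried a region. The nearest region lay 40.2 kb from Sox1, 31.1 kb from Sox2 and from Sox14, and 11.4 kb from Sox21.

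Among SoxC genes, activators in neural and mesenchymal progenitors, 2 of 3 carried a region. They are 4.4 to 8.5 kb long, and over those length classes 13.2% to 28.3% of protein-coding genes carried a region. Sox12 held the strongest difference of all members and the third highest fold of the whole list (rank 3 of 39231). At chromosome 2, 152394943 to 152395292, tamoxifen had 3 tags and oil 94, a fold of 28.89 (limits 13.6 to 203), so that 2.4% of the oil signal was left. The region lies inside this 4436 bp gene on its far side, 2941 bp from the start site. Sox4 had 25 tamoxifen and 99 oil tags (fold 4.98, limits 3.32 to 8.41) at chromosome 13, 28955054 to 28955454, which is upstream of the gene, 1687 bp before its start, and overlaps the gene Gm46405. Sox11 had no region within 219.8 kb.

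SoxD proteins lack a transactivation domain and work by pairing with other factors. All 3 genes carried regions and together held 25 of the 47, and Sox5 and Sox6 are the longest members. Of protein-coding genes, 66.8% at 30 to 100 kb, the class of Sox13, and 94.7% at 500 kb or more carried a region. Sox5, an accessory factor for Sox9 in cartilage, spans 953.9 kb of chromosome 6 (143828425 to 144782287). Its 18 regions had 2 or fewer to 38 tamoxifen tags and 16 to 119 oil tags, with folds of 3.30 to 8.98 and a median of 5.01, and 15 of them were past a q limit of 1e-10 (83.3%, against 82.8% of the whole list). They came to 1.88 per 100 kb, more than 89.9% of the 227 protein-coding genes of 500 kb or more (median 0.47, quartiles 0.23 and 1.02).

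The Sox5 regions were unevenly spread. The 100 kb at the start side held 8 of them, from a region 1696 bp beyond the gene's end to one 90.1 kb inside, with folds of 3.30 to 7.17. The outermost, at 144783837 to 144784427, had 11 tamoxifen and 49 oil tags (fold 5.33, limits 3 to 12.5) and was the gene's sole region near an end. The gap between neighbouring summits ranged from 0.75 to 256.9 kb. The strongest region, at 144334337 to 144334663 deep in the gene, had 13 tamoxifen and 97 oil tags (fold 8.98, limits 5.46 to 19). The best covered, at 143944009 to 143944409, had 38 tamoxifen and 119 oil tags (fold 4.0, limits 2.83 to 6.08) and lies 2942 bp downstream of the only start listed for Sox5. That listed start is 835.2 kb from the start-side end of the gene. Of the 18 regions, 2 also overlap other genes, Gm52486 and Sox5os3.

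Sox6, the repressor of slow fibre genes in muscle, is 569.9 kb long and had 4 regions on chromosome 7, or 0.70 per 100 kb, more than 65.6% of genes of 500 kb or more. Besides the promoter region, the strongest lay at 115606593 to 115606820, with 2 or fewer tamoxifen tags and 23 oil tags (fold 7.74, set by the genome mean). A region at 115777082 to 115777286 had 16 tamoxifen and 50 oil tags (fold 3.86), and one at 115476458 to 115476836 had 7 and 24 (fold 3.94). Oil tags at all 4 were below the list's median of 51. Sox13, expressed in lymphocytes and arteries, had 3 regions in 42.2 kb of chromosome 1, or 6.50 per 100 kb. The strongest, at 133387943 to 133388330, had 10 tamoxifen and 60 oil tags (fold 7.07, limits 4 to 17.2). The one near the far end had 9 tamoxifen and 40 oil tags (fold 5.21). The third, with 5 tamoxifen and 20 oil tags (fold 4.36), has its summit 2307 bp from the start-side end, just outside the end window.

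**Figure D5:**
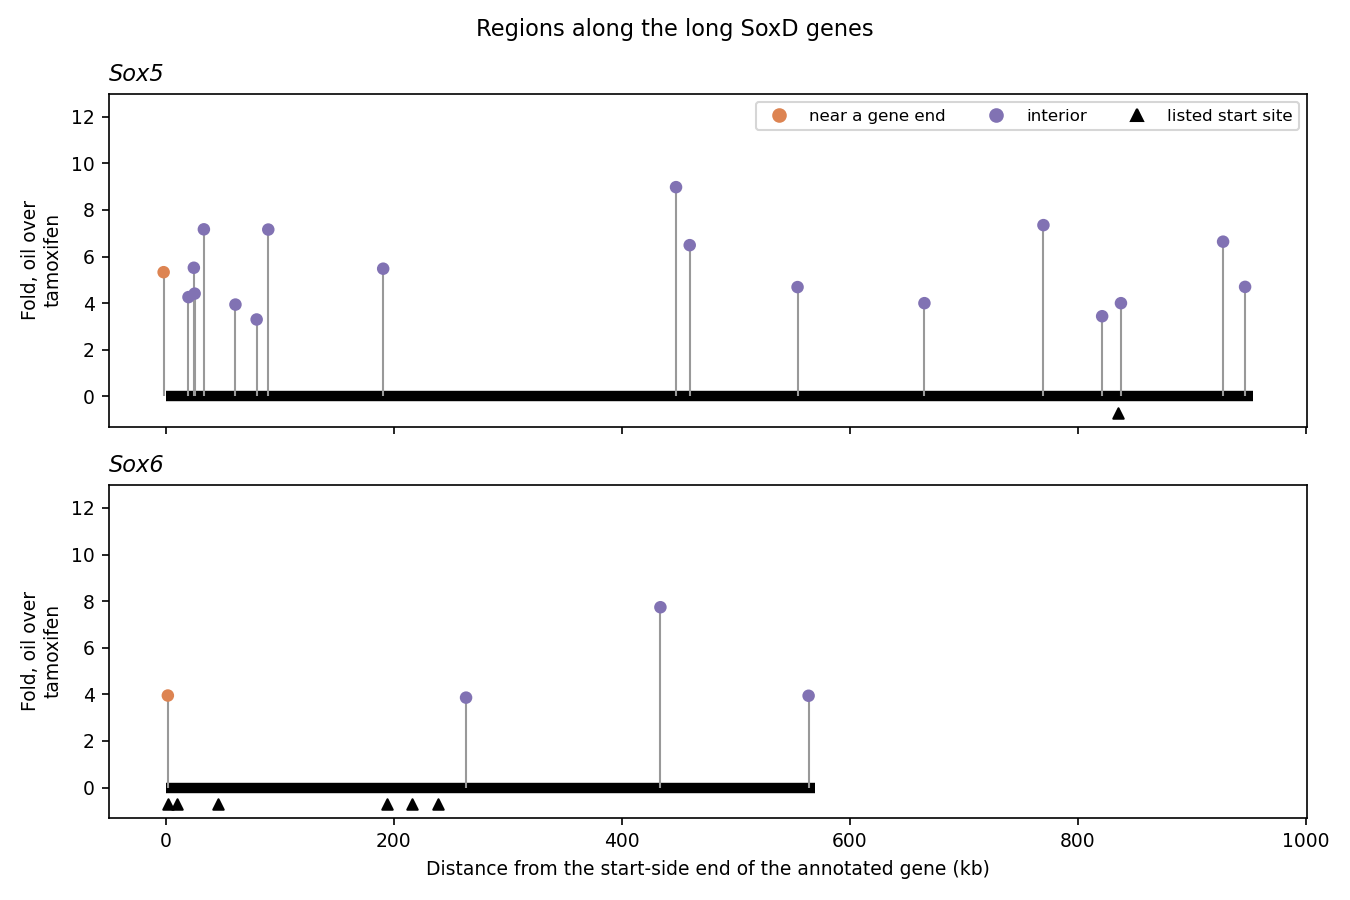
Regions along Sox5 (upper) and Sox6 (lower), drawn as the authors' fold (oil over tamoxifen) against distance in kb from the start-side end of the annotated gene, with black bars for gene bodies and triangles for listed start sites. Sox5 shows 8 regions within 100 kb of its start side and a gap of 256.9 kb further in, and Sox6 has 4 widely spaced regions.

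All 3 SoxE genes, 4.8 to 9.6 kb long, carried a region near an end. Of protein-coding genes, 13.1% under 5 kb and 20.9% at 5 to 10 kb did. SoxE factors specify neural crest, glia and cartilage, and Sox8 and Sox9 have also been studied in satellite cells. Sox9 and Sox10 held the best covered regions of all members, with more oil tags than 99.5% and 98.6% of the list. Inside Sox9, the master regulator of cartilage, at chromosome 11, 112785310 to 112785706, tamoxifen had 101 tags and oil 205. That fold of 2.64 (limits 2.09 to 3.41) was the lowest of the members, exceeding 4.9% of the list, and 37.6% of the oil signal was left. Before the gene's left end, at 112780281 to 112780985, tamoxifen had 30 tags and oil 120 (fold 5.07, limits 3.49 to 8.11). The limits of these 2 regions, inside and before a gene of 5548 bp, do not overlap.

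At Sox10, which drives Schwann cell and melanocyte fates, a region just inside the right end (chromosome 15, 79163827 to 79164336) had 55 tamoxifen and 186 oil tags (fold 4.35, limits 3.27 to 6.11). Another just beyond that end, over Gm10863, had 8 tamoxifen and 38 oil tags (fold 5.49, limits 2.86 to 15.5). The limits of the 2 regions overlap. Sox8 had a region at its far end on chromosome 17, 25565910 to 25566277, with 5 tamoxifen and 24 oil tags (fold 5.19, limits 2.35 to 21.1). It was not past a q limit of 1e-10.

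SoxF factors act in endothelium and endoderm, and 1 of their 3 genes carried a region. At the lengths of these genes, 1.8 to 7.0 kb, the shares of protein-coding genes were 13.2% under 5 kb and 28.3% at 5 to 10 kb. Sox7 had 6 tamoxifen and 36 oil tags (fold 6.64, limits 3.28 to 22.8) at chromosome 14, 63944110 to 63944477, inside the gene near its left end. The nearest region lay 93.7 kb from Sox17 and 28.4 kb from Sox18. Sox15, the sole SoxG gene, had none within 2000 bp, but 3 lay 2676 to 4009 bp away on chromosome 11. The closest had 10 tamoxifen and 41 oil tags (fold 4.87), the next 69 and 188 (fold 3.52), and the farthest 2 or fewer and 34 (fold 11.29). These are the values just outside the 2000 bp limit together with those by Eomes (3021 bp, fold 5.22), Mga (2848 bp, fold 4.73), Sox10 (3105 bp, fold 4.20) and Tbx15 (4423 bp, fold 5.76). The farthest regions inside it were those of Sox5, Sox10 and Sox4, at folds of 5.33, 5.49 and 4.98.

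Of the 15 T-box genes, 8 (53.3%) carried a region, against 45.2% of protein-coding genes. The 13 T-box regions had 3 to 31 tamoxifen tags, 25 to 111 oil tags and folds of 2.97 to 7.91. The Tbx2 group held the most regions, 6, with at least 1 at each of its 4 genes. These genes are 9.3 to 88.7 kb long, and over those length classes 28.3% to 66.8% of protein-coding genes carried a region. Tbx2 and Tbx3 are repressors of transcription that act in limb and heart development and restrain senescence, and Tbx4 and Tbx5 are activators of limb outgrowth. The 4 lie in 2 linked pairs, and 1 further region fell in the 44.4 kb between Tbx2 and Tbx4 (fold 4.49) and 1 in the 111.8 kb between Tbx3 and Tbx5 (fold 4.69).

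Tbx4, the hindlimb gene, had the strongest T-box region at chromosome 11, 85890855 to 85891055, in the interior, with 3 tamoxifen and 25 oil tags (fold 7.91, limits 3.33 to 56.5). A second near its start side, at 85888120 to 85888677, had 9 tamoxifen and 43 oil tags (fold 5.60, limits 3.01 to 14.6). Its neighbour Tbx2 had 10 tamoxifen and 45 oil tags (fold 5.33) near the left end at 85834545 to 85834782, and 15 and 42 (fold 3.46) in the interior at 85836799 to 85837027. Tbx3 had 11 tamoxifen and 39 oil tags (fold 4.26, limits 2.34 to 10.1) inside the gene at chromosome 5, 119675839 to 119676057. Tbx5, the forelimb and heart gene, had 15 tamoxifen and 41 oil tags (fold 3.38, limits 1.94 to 6.97) near its right end at 119883734 to 119884241. The Tbx5 region was not past a q limit of 1e-10. The limits of all 6 regions overlap one another.

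In the Tbx1 group 1 of the 5 genes examined carried a region. The 5 are 6.8 to 113.9 kb long, and over those length classes 28.3% to 84.9% of protein-coding genes carried a region. Tbx15 had its better covered region 952 bp before the left end (chromosome 3, 99239084 to 99239485), with 31 tamoxifen and 111 oil tags (fold 4.55, limits 3.13 to 7.24), where the gene Gm38468 also lies. A weaker one inside the gene, at 99258184 to 99258511, had 15 tamoxifen and 36 oil tags (fold 2.97, limits 1.68 to 6.19), and its -log10 p was below the lowest on the list when tamoxifen tags were not scaled. The nearest region lay 6.1 kb from Tbx1, which patterns the pharyngeal arches and their muscles, 10.5 kb from the heart gene Tbx20, 27.4 kb from Tbx10 and 38.5 kb from Tbx18.

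Elsewhere in the family, Tbx21, which encodes the T helper factor T-bet, had 2 interior regions on chromosome 11. At 97104107 to 97104418 tamoxifen had 12 tags and oil 68 (fold 6.80, limits 3.99 to 15.1), and at 97109035 to 97109297 it had 8 and oil 41 (fold 5.91). Tbx19, needed for pituitary Pomc expression, had 2 interior regions on chromosome 1 as well, with 8 tamoxifen and 38 oil tags (fold 5.49) at 165147992 to 165148244 and 11 and 40 (fold 4.37) at 165153011 to 165153217. Mga, a partner of Max that carries a T-box, had 1 region at its far end on chromosome 2 (119968807 to 119969011), with 20 tamoxifen and 52 oil tags (fold 3.26, limits 2 to 6.03). The forebrain genes Tbr1 and Eomes and the somite gene Tbx6 had none, with the nearest at 145.2, 3.0 and 25.4 kb.

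Genes known to act downstream of or beside these factors were counted as well. Of 10 cartilage targets of Sox5, Sox6 and Sox9, 4 carried a region (40%), among them Col2a1 with 10 tamoxifen and 37 oil tags (fold 4.41). Of 10 glial and pigment targets of Sox10, 5 did (50%), with the highest fold at the melanin enzyme gene Dct (2 or fewer tamoxifen and 30 oil tags). Of 6 slow fibre genes repressed by Sox6, 4 did (66.7%). They were Myh7, the slow myosin, whose strongest of 4 regions had 4 tamoxifen and 51 oil tags (fold 12.84), Tnni1 (fold 5.43), Myl2 (fold 4.99) and Tnnt1, whose region had 134 tamoxifen and 159 oil tags and a fold of 1.55. Of the 8 regions at slow fibre genes, 3 (37.5%) were past a q limit of 1e-10, against 82.8% of the whole list. Against 45.2% of protein-coding genes, 2 of these lists lay above and 1 below, and none was tested. That share is not matched for length. The median gene length was 25.9 kb in the cartilage list, 30.2 kb in the Sox10 list and 16.1 kb in the slow fibre list. Protein-coding genes carried a region in 45.9% at 10 to 30 kb and 66.8% at 30 to 100 kb.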

How the data were processed

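MBD2-captured and non-methylated DNA of cultured satellite cells was sequenced in 4 libraries, 1 per group. Per the submitters' processing notes, Trim Galore, HISAT2 and the mm10 genome were used, and per the file headers regions were called with MACS 2.2.6, with oil as treatment and tamoxifen as control input, a q cutoff of 1e-04, 1 tag per position and strand, tags extended to 201 bp, the larger library scaled to the smaller and no regional background. The comparison's name gives the treatments the other way round, and the command line was followed. The deposited pileup is a signal that counts unscaled, extended oil tags at the summit. The deposited fold is a ratio, the oil value over the scaled tamoxifen value, with 1 added to both. In the deposited list 2 headings were lost, and from their place these columns were read as -log10 values of p and q given by the authors' caller, which compare libraries and not conditions. Regions with more tamoxifen signal were not analysed here.

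Tamoxifen tags were computed from pileup, fold and the library factor of 0.763, and came out whole within 0.02 tags in 38251 regions (97.5%). In the other 980 the value was the genome mean of 2.10 scaled tags, which stands for 2 or fewer tags. Genes were matched by symbol to the RefSeq table of GRCm38.p6, with bases counted once where genes overlap. Strand was known for genes in the RefSeq promoter table, whose windows on opposite strands were checked against each other (1683 overlaps, 0 differing). The overlap and tag steps were tested on simulated data. Python 3.11.15, NumPy 2.4.6 and SciPy 1.17.1 were used. PCR duplicates were removed by position and not by molecular identifiers. The members, lists and tests were chosen with earlier results of these data known. All 18 members with a region are described and the other 15 named. Counts, the share near an end and the median fold were recomputed under alternative q limits, flanks, end windows and scaling, and the strongest and best covered region of each member under alternative q limits and scaling. A further gene list, of heart genes, is not reported here.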

Additional observations from a re-analysis of the deposited data

How the results depend on the processing

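No paired analysis was possible because each group has 1 library, and leaving out a library leaves no comparison. The count of 18 members with a region ranged from 16 to 20 over q limits of 1e-06 and 1e-10, flanks of 0 and 5000 bp and the use of midpoints. At 1e-10 Sox8 and Tbx5 were lost. The number of regions ranged from 37 to 54 over the same settings. The share near an end, 34%, was 12.8% with an end window of 1000 bp, which by construction takes in less of each gene, and 42.6% with 5000 bp. The median fold of 4.98 was 3.85 with unscaled tamoxifen tags, since the library factor is then left out. Leaving out Sox5, a setting added after the data were seen, gave 29 regions and a share near an end of 51.7%. Over the strongest and the best covered region of each member, 23 had counting limits, and without scaling the fold lay within them in 22. The exception was the interior region of Sox9, which came to 2.02. The strongest Sox6 region, with 2 or fewer tamoxifen tags, had no such limits. Of all 47 regions, 37 (78.7%) were past a q limit of 1e-10, against 82.8% of the whole list. Of the 47 regions, 45 (95.7%) still passed the lowest listed p without scaling, against 94.7% of the whole list. Where a member has no region, depth may be the limit, as the listed regions start at 13 oil tags.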
